A study of Mus musculus with 4 samples.

Results

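Six3, Sp9, Adora2a and Oprk1 are 4 of the 43346 gene features counted in each library, and were taken by their symbols as a small set of genes tied to the indirect pathway of the striatum. They were followed in dissociated forebrain cells of wt (C57BL/6, pooled sexes) mouse embryos at E12.5, profiled with the droplet-based 10x Genomics platform, and no group carried a transgene or treatment. There was 1 library for each of 4 regions: the cortex (CTX) and the ganglionic eminences LGE (lateral), MGE (medial) and CGE (caudal), from which forebrain GABAergic neurons come. The labels describe a sort for live cells (DRAQ5+/DAPI-), whereas the methods name sorting for a transgenic line only, so whether these cells were sorted is unsettled. With 1 library per region no test between regions was possible, and intervals below cover counting error only.

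The striatum sends its output through projection neurons of a direct and an indirect pathway, which are born largely in the LGE. Direct-pathway neurons express the dopamine receptor Drd1 and the peptide Tac1, and depend on the transcription factors Isl1 and Ebf1. Indirect-pathway neurons express the dopamine receptor Drd2, the adenosine receptor Adora2a and the peptide Penk, and depend on Six3, a homeodomain factor, and Sp9, a zinc finger factor that interneuron precursors also use. Oprk1 encodes the kappa opioid receptor, which is also made by other striatal neurons, including those of the direct pathway, so its place in the set is looser.

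The libraries held 4301 to 6953 barcodes and 31451467 to 49794765 UMIs (unique molecular identifiers, each counting 1 captured transcript), and 3190 to 4734 cells per library were kept at median depths of 6960 to 8263 UMIs. Pairs of libraries shared 4 to 15 barcodes. High-Dcx cells had the natural log of 1 + UMIs per 10000 above 1.5 for Dcx, a microtubule protein of young neurons. This gave 798 CTX, 2119 LGE, 2203 MGE and 2292 CGE cells. The gate holds dividing cells as well as newborn neurons, and 385 of the LGE cells fell in the dividing SVZ gate described below. Marker levels in these cells followed the dissections, with the MGE factor Nkx2-1 at 646 CPM (UMIs per 1000000 UMIs of the summed cells) in MGE against 5.20 CPM in LGE. The CGE factor Nr2f2 stood at 645 CPM in CGE against 94.3 CPM in MGE, and the cortical factor Neurod6 at 1273 CPM in CTX against 24.1 CPM in CGE.

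In GENCODE M21, Six3 lies on chr17:85613608-85629302 of GRCm38 (+ strand), where its antisense neighbor Six3os1 (chr17:85600651-85618398, - strand) overlaps it by 4791 bases. Sp9 lies on chr2:73271925-73284706, Adora2a on chr10:75316877-75334784 and Oprk1 on chr1:5588466-5606131, all on the + strand. Whether reads were counted by strand is not given in the sources used here, so reads of Six3 and Six3os1 may have been exchanged where the genes overlap. Promoters are shown for the 2 transcription factors, because the promoter set used held no entry for Adora2a or Oprk1. That of Six3os1 is added because Six3 and Six3os1 shared cells. Each is the 250 bases before the RefSeq start on GRCm38.p6, at chr17:85620584-85620833 (+) for Six3, chr17:85618397-85618646 (-) for Six3os1 and chr2:73271676-73271925 (+) for Sp9. Capitals mark CCAAT or its reverse ATTGG (the CCAAT box) and TAATT or its reverse AATTA (a homeodomain core), searched on both strands.
Six3: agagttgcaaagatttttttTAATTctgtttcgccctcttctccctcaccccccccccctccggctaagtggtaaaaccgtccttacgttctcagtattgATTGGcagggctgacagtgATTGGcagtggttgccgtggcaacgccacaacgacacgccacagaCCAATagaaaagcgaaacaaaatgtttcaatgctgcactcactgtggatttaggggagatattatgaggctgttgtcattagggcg
Six3os1: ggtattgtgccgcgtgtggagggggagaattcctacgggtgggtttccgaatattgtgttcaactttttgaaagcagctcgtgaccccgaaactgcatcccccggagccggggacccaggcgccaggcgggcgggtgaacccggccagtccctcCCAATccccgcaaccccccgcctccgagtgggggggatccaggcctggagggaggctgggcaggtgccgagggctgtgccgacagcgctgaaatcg
Sp9: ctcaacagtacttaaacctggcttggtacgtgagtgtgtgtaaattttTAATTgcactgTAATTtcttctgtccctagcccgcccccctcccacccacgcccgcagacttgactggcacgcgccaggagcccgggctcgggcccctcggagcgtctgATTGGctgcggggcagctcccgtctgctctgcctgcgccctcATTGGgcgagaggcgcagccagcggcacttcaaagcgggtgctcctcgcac
The Six3 promoter held 3 CCAAT matches and 1 TAATT match at a GC content of 48.8%. The Sp9 promoter held 2 of each at 62.4% GC, and the Six3os1 promoter 1 CCAAT match at 66.0% GC. Over 32851 mouse promoters of this length, 33.8% held a CCAAT match, 2.79% held 3 or more, 25.0% held a TAATT match and 9.43% held 2 or more. A match describes the letters only. The RefSeq starts of Six3 and Six3os1 were 2438 bases apart. From these starts the genes run away from each other and do not overlap, so the overlap holds for the GENCODE M21 positions only. The Six3 promoter shown therefore lies inside the GENCODE M21 interval of Six3.

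Among high-Dcx cells Six3 was highest in LGE and CGE and was not detected in cortex. LGE high-Dcx cells had 409 CPM (399 to 419), CGE cells 269 CPM (261 to 277), MGE cells 69.6 CPM (65.4 to 74.0) and CTX cells 0 (a count of 0 allows up to 0.444 CPM). LGE was therefore highest, CGE next and MGE lower, with intervals that did not overlap. Six3 was 5.87-fold (5.50 to 6.28) higher in LGE than in MGE and 1.52-fold (1.46 to 1.58) higher than in CGE, and at least 922-fold higher than the CTX floor of 3 counts. In these summed counts, fewer cells with a transcript and less RNA per cell cannot be told apart, so shares of cells were also taken after each cell had been thinned to 3000 UMIs. At that depth Six3 was detected in 31.4% of LGE, 9.49% of MGE and 19.1% of CGE high-Dcx cells, against 40.6%, 15.9% and 25.7% at their own depth.

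Sp9 had another order. MGE high-Dcx cells had 813 CPM (799 to 828), LGE cells 456 (445 to 467), CGE cells 434 (424 to 445) and CTX cells 23.5 (20.0 to 27.5). MGE stood above the others, 1.78-fold (1.73 to 1.84) over LGE, whereas LGE and CGE differed by only 1.05-fold (1.01 to 1.08). That last order turned to 0.997-fold with the Dcx limit at 1.0 and to 0.964-fold in mantle zone cells, so LGE and CGE could not be ranked. After thinning, Sp9 was detected in 81.3% of MGE, 56.9% of CGE and 51.9% of LGE cells. The counts in CTX came mostly from few cells. Of 50 CTX high-Dcx cells with the GABAergic genes Gad2 or Dlx5 and without Neurod6 or Neurod2, 41 (82.0%) had Sp9, against 5 of 742 CTX cells (0.674%) with Neurod6 or Neurod2. None of those 50 cells had Six3, which allows a share of up to 6.0%.

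The receptors were rare at this age. Adora2a was counted with 3 UMIs in CTX, 139 UMIs in 70 LGE cells, 1 UMI in MGE and 58 UMIs in 34 CGE cells, which made 9.39 CPM (7.89 to 11.1) for LGE and 3.63 (2.76 to 4.70) for CGE. LGE was 2.58-fold (1.89 to 3.57) above CGE, and 4.61-fold (3.10 to 6.96) in mantle zone cells. Oprk1 was counted with 0 UMIs in CTX, 73 UMIs in 29 LGE cells, 6 UMIs in 3 MGE cells and 98 UMIs in 50 CGE cells, which made 4.93 CPM (3.86 to 6.2) for LGE and 6.14 (4.99 to 7.48) for CGE. For Oprk1 the order of LGE and CGE was within counting error, with a CGE to LGE ratio of 1.25 (0.911 to 1.71) against 0.694 in mantle zone cells. As a measure of background, Adora2a was found in 3 of 742 CTX cells with Neurod6 or Neurod2 (0.404%, median 8165 UMIs) and in 5 of 652 LGE high-Nestin cells (0.767%, median 8150 UMIs), against 3.30% of LGE high-Dcx cells (median 6440 UMIs). Oprk1 was found in 0 of 652 LGE high-Nestin cells, which allows up to 0.460%, against 1.37% of LGE high-Dcx cells.

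Over all genes at 10 CPM or more in either library, 3.59% were 2-fold or more higher in LGE than in MGE and 2.33% were lower, with 5.21% higher and 4.24% lower against CGE and 7.42% higher and 7.25% lower against CTX. Six3 alone among the members passed that fold over MGE at 10 CPM or more, Six3 and Sp9 passed it over CTX, and none passed it over CGE, since Adora2a stayed under 10 CPM in both libraries. Of the relatives of Six3, Six6 was at 0 UMIs in all 4 libraries and Six2 at 36 UMIs in LGE. The dopamine receptors that define the pathways in the adult were also rare. In the LGE, MGE and CGE libraries Drd2 had 6, 1 and 0 UMIs, Drd1 had 89, 2 and 16, and Penk had 43, 1 and 41. The indirect-pathway label thus rested on the transcription factors and few receptor counts, with Drd2, a defining marker, near 0.

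To place the genes along the path from progenitor to neuron, cells were gated as VZ (ventricular zone, high Nestin), SVZ (subventricular zone, dividing Dcx cells) and MZ (mantle zone, postmitotic Dcx cells). In LGE, Six3 was at 203 CPM in VZ, 465 in SVZ and 399 in MZ cells. In MGE it had the other order, with 121 CPM in VZ, 59.7 CPM in SVZ and 65.4 CPM in MZ cells. In CGE it was highest in the MZ, with 97.0, 166 and 325 CPM. Over the 3 eminence libraries together Six3 passed no threshold, at a log2 fold change of 0.42 for SVZ minus VZ (edgeR adjusted p = 0.495) and 0.18 for MZ minus SVZ (edgeR adjusted p = 0.758). Without MGE the first of these was 1.20 (edgeR adjusted p = 0.00494), without LGE it was -0.26, and with no filter on low counts it was called at 0.42 (edgeR adjusted p = 0.00153).

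Sp9 followed 1 course in all 3 eminences. It was at 113, 582 and 377 CPM in VZ, SVZ and MZ cells of LGE, at 157, 906 and 709 CPM in MGE and at 83.6, 675 and 392 CPM in CGE. SVZ was the peak in each. Sp9 rose from VZ to SVZ by 2.72 on the log2 scale (SE 0.131, edgeR adjusted p = 1.39e-06) and fell from SVZ to MZ, at -0.66 (SE 0.12, edgeR adjusted p = 0.00150). Of 11694 genes tested, 18.7% were higher and 17.5% lower in SVZ than in VZ, and 22.9% were lower in MZ than in SVZ (45.7% in either direction), so stage calls were common. Adora2a and Oprk1 did not pass the filter on low counts here. Among the 3 gates both were highest in MZ cells. Adora2a in LGE was at 1.54 CPM in VZ, 0 in SVZ and 23.1 CPM in MZ, and Oprk1 at 0 in VZ, 0.284 CPM in SVZ and 11.9 CPM in MZ. Many counts lay outside these gates: LGE MZ cells held 78 and LGE high-Dcx cells 139 of the 234 Adora2a UMIs of all kept LGE cells, and 40 and 73 of the 92 Oprk1 UMIs. In MGE 1 of 28 Adora2a UMIs lay in high-Dcx cells.

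**Figure D1:**
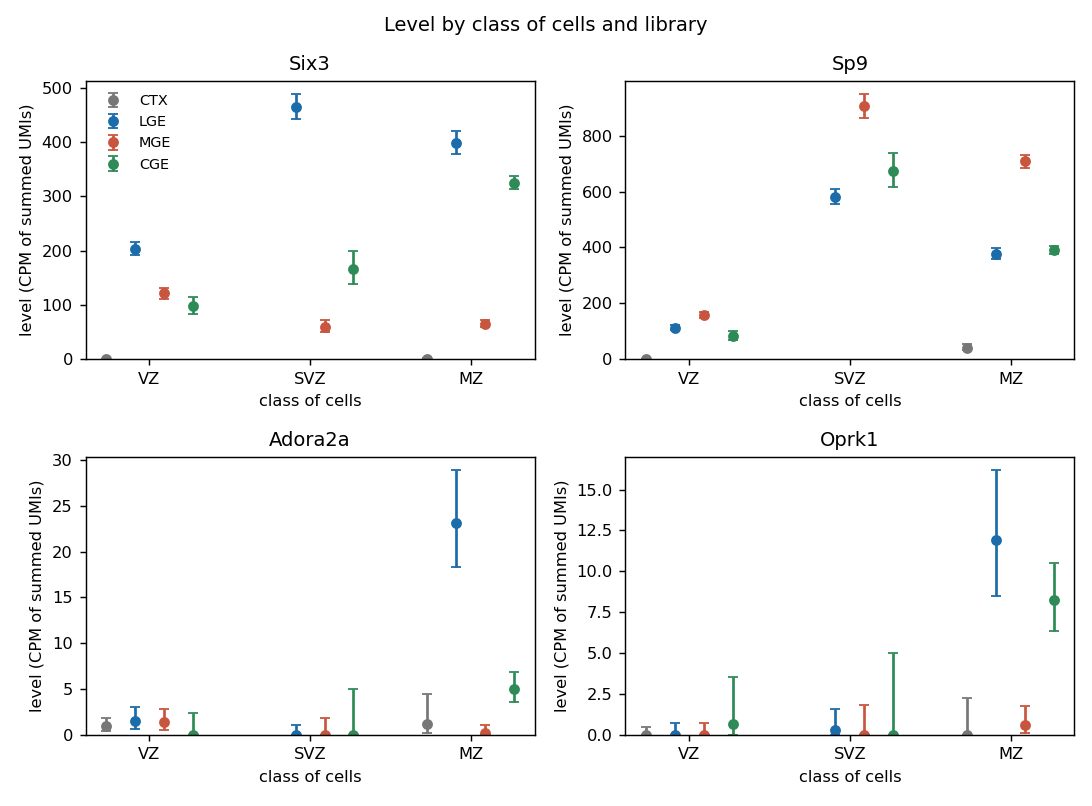
Level (CPM of summed UMIs) of each gene in VZ, SVZ and MZ cells of the CTX, LGE, MGE and CGE libraries, with exact Poisson 95% intervals; classes under 30 cells are left out. Sp9 peaks in SVZ cells of every eminence, Six3 is highest in LGE SVZ cells at 465 CPM, and both receptors are, of these 3 classes, highest in MZ cells of LGE and CGE.

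In LGE fewer MZ than SVZ cells held Six3, with more copies each. After thinning, 235 of 601 LGE VZ cells, 192 of 385 SVZ cells and 122 of 544 MZ cells had a Six3 UMI, with means of 1.54, 2.74 and 5.53 UMIs per positive cell. In CGE positive cells carried 1.14, 1.85 and 4.81 UMIs. The 10% of MZ cells with most copies held 78.4% of the Six3 UMIs in LGE and 83.7% in CGE, whereas for Sp9 these shares were 46.9% and 38.4%. Six3 transcripts thus sat in a small group of strongly positive neurons, and Sp9 transcripts were spread more widely.

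The next question was whether the genes were excluded from cells with Ebf1 or Isl1, the factors of the direct pathway. A UMI of either was present in 860 of 2079 thinned LGE high-Dcx cells, 142 of 2150 in MGE and 269 of 2257 in CGE. Sp9 was found in 18.4% of LGE cells with Ebf1 or Isl1 and in 75.6% of those with neither. The same shares were 28.9% and 85.0% in MGE, and 21.9% and 61.6% in CGE. Sp9 was thus less frequent in the Ebf1 or Isl1 cells among high-Dcx cells of each eminence, but present in some of them. Within SVZ cells, a gate added after seeing the data, the share ratio was 1.08 in MGE and 1.06 in CGE, from 4 and 5 cells with Ebf1 or Isl1. In LGE SVZ cells Sp9 was found in 64.8% (52.5 to 75.8) of 71 cells with and 77.4% (72.4 to 81.9) of 314 without. That ratio of 0.837, with overlapping intervals, compares with 0.243 in all LGE high-Dcx cells. On summed counts its level was 198 CPM with and 694 CPM without in LGE, 356 and 859 in MGE, and 236 and 477 in CGE. The log2 difference was -1.38 (SE 0.154, edgeR adjusted p = 0.00998), lower in 3 of 3 libraries. Of 12337 genes tested, 0.956% were lower in these cells and 1.52% higher (2.48% in either direction).

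MGE-lineage markers moved with this split. The summed level of Nkx2-1, Lhx6, Lhx8, Sst and Npy was 56.5 CPM with and 587 CPM without Ebf1 or Isl1 in LGE, 741 and 1934 CPM in MGE, and 98.9 and 839 CPM in CGE. All 5 genes of that list were lower by the test, and Sp9 is used by interneurons of that lineage. Their part in the Sp9 difference was not tested.

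Six3 did not behave alike in the 3 eminences. It was found in 20.1% (17.5 to 23.0) of LGE cells with Ebf1 or Isl1 against 39.4% (36.6 to 42.2) without. In MGE the shares were 32.4% with and 7.87% without, and in CGE 30.5% with and 17.6% without. Six3 was thus less frequent in Ebf1 or Isl1 cells of LGE and more frequent in those of MGE and CGE, and the difference between eminences was not tested. Within LGE SVZ cells the order was reversed, with Six3 in 57.7% of 71 cells with and 48.1% of 314 without. On summed counts it was 273 CPM with and 534 CPM without in LGE, 334 and 43.0 CPM in MGE, and 369 and 247 CPM in CGE. The pooled log2 difference of 0.75 (SE 0.684) had an edgeR adjusted p of 0.635, and it turned to -0.21 without MGE. The MGE groups also differed in regional genes. Cells with Ebf1 or Isl1 had more of the striatal genes Meis2 (851 against 56.1 CPM) and Foxp2 (61.0 against 3.67 CPM) in MGE. They had less Nkx2-1 there, at 357 against 675 CPM. Meis2 was at 3089 with and 2255 CPM without in LGE, and at 1083 and 681 CPM in CGE. The part of regional identity in the Six3 difference was not tested.

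Split into 4 classes, the low Six3 shares of LGE lay in the cells with Ebf1. Six3 was found in 39.4% of cells with neither factor, in 39.9% of those with Isl1 alone, in 11.8% of those with Ebf1 alone and in 5.53% of those with both. Cells with Isl1 and no Ebf1 therefore held Six3 at nearly the same share as cells with neither. Their Six3 level after thinning was lower, at 431 against 564 CPM, and in LGE MZ cells at 315 against 687 CPM. For Sp9 the shares in the same order were 75.6%, 33.8%, 21.8% and 4.02%, so Sp9 was less frequent with Isl1 alone as well. In CGE, Six3 was found in 350 of 1988, 50 of 111, 8 of 64 and 24 of 94 cells of these classes, and in MGE in 158 of 2008, 21 of 57, 6 of 22 and 19 of 63.

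**Figure D2:**
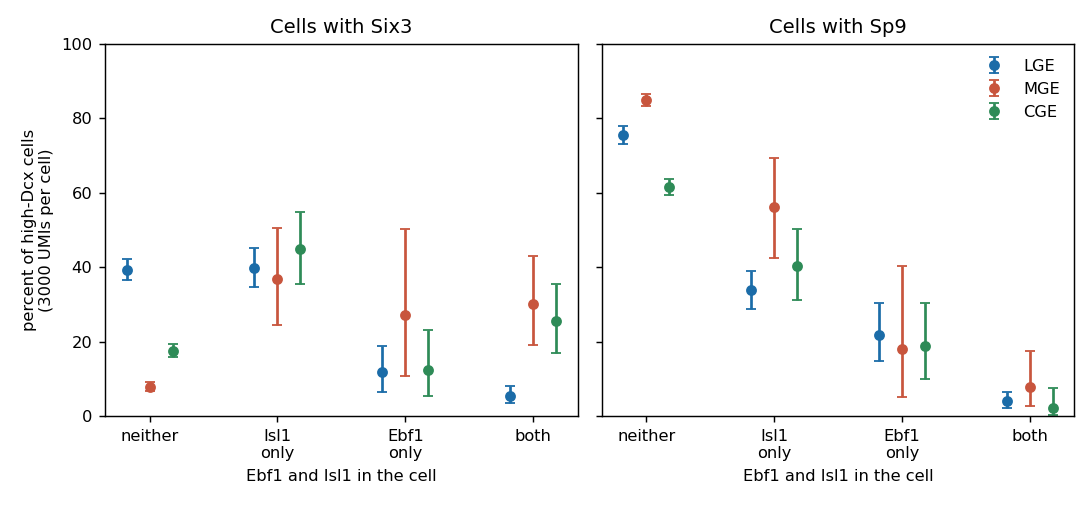
Percent of high-Dcx cells with a Six3 UMI (left) or a Sp9 UMI (right) among cells with neither Ebf1 nor Isl1, Isl1 only, Ebf1 only or both, in the LGE, MGE and CGE libraries; points are shares at 3000 UMIs per cell with exact Clopper-Pearson 95% intervals. Across the LGE classes Sp9 lies between 75.6% and 4.02%, while Six3 is at 39.9% in LGE cells with Isl1 only and at 5.53% with both.

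Cells were also ordered by their number of Six3 UMIs. In LGE, Ebf1 was found in 33.7% of cells with 0 Six3 UMIs, 8.65% with 1, 5.08% with 2, 2.54% with 3 or 4 and 4.31% with 5 or more. Isl1 went from 40.8% to 29.3%, 25.4%, 29.7% and 15.8% over the same bins. In MGE the share with Ebf1 or Isl1 went from 4.93% at 0 to 11.3%, 21.9%, 71.4% (10 of 14 cells) and 56.0% (14 of 25 cells). The bin of 3 or 4 UMIs is thin. The few strongly Six3-positive MGE cells were mostly Ebf1 or Isl1 cells, which was not so in LGE. In CGE the share was 10.2%, 15.8%, 30.8%, 20.8% and 16.1%, with its high point at 2 UMIs.

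**Figure D3:**
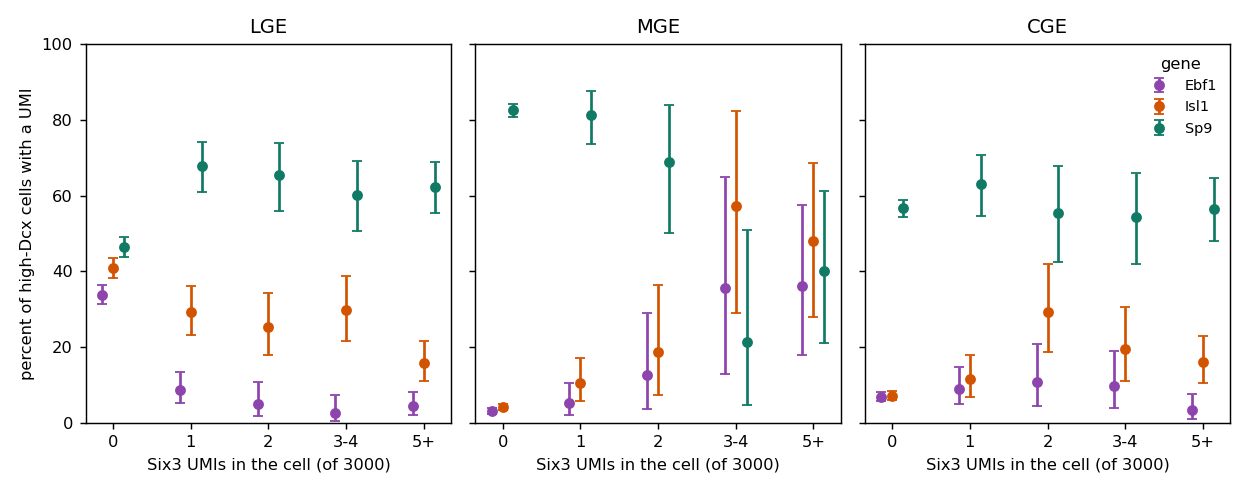
Percent of high-Dcx cells in which Ebf1, Isl1 or Sp9 was detected (vertical axis) by the number of Six3 UMIs in the cell after thinning to 3000 UMIs (horizontal axis), in LGE, MGE and CGE; bars are exact Clopper-Pearson 95% intervals. In LGE, Ebf1 is at 33.7% without Six3 and 8.65% at 1 Six3 UMI, whereas in MGE Ebf1 and Isl1 are more frequent at higher Six3 counts, with 14 and 25 cells in the last bins.

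For the receptors, cells with Ebf1 or Isl1 held few of the counts. Adora2a was found in 7 of 860 thinned LGE cells with and 34 of 1219 without Ebf1 or Isl1, in 0 of 142 and 1 of 2008 MGE cells, and in 0 of 269 and 17 of 1988 CGE cells. Its log2 difference was -2.20 (SE 0.393, edgeR adjusted p = 0.0467), and 2 sums of each group reached the filter of 1.35 CPM. That call was lost without LGE (edgeR adjusted p = 0.549), without MGE (edgeR adjusted p = 0.0611) and with DESeq2 (adjusted p = 0.285). Oprk1 was found in 2 of 860 and 21 of 1219 LGE cells, in 1 of 142 and 1 of 2008 MGE cells, and in 1 of 269 and 27 of 1988 CGE cells. Its log2 difference of -2.42 (SE 0.931) did not pass, at an edgeR adjusted p of 0.269. Without MGE the edgeR adjusted p was 0.0465, but Oprk1 then passed the filter through the cells without Ebf1 or Isl1 alone.

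Among the other genes of the pathways, the indirect list (Drd2, Penk, Gpr6, Gpr52, Grik3, Ptprm and Sp8) had 4 genes tested, of which 2 were lower in Ebf1 or Isl1 cells and none higher, with a median log2 difference of -1.54 against -0.017 over all genes. These were Grik3, a kainate receptor subunit, at -0.74 (edgeR adjusted p = 0.0204) and Sp8, a relative of Sp9, at -2.18 (edgeR adjusted p = 0.0256). Sp8 is also a marker of the dorsal LGE. Of 4 dorsal LGE markers tested, 2 were lower (Sp8 and Etv1) and 0 higher, with a median of -1.59. In LGE the other markers were at 14.3 with and 69.4 CPM without for Pax6, and 42.9 and 209 CPM for Tshz1. The part of dorsal LGE cells in these results was not tested. Of the direct list without Ebf1 and Isl1, which set the split, 3 of 3 genes tested were higher, among them Tac1 at 3.79 (edgeR adjusted p = 0.0118). Of 9 shared striatal genes tested 3 were higher, including Foxp1 at 1.07 (edgeR adjusted p = 0.0204). Among genes at 50 CPM or more, the greatest differences were those of Mgat4c (5.66) and Sybu (4.78) on the higher side and of the interneuron peptides Sst (-3.52) and Npy (-3.17) on the lower side. Glutamatergic markers were also higher in Ebf1 or Isl1 cells, 3 of 5, with a summed level of 57.2 CPM with and 12.6 CPM without in LGE and 305 and 37.5 CPM in CGE, and their part in these results was not tested.

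Sp9 was more frequent in high-Dcx cells with Six3 than in those without it in LGE, and this was not so in MGE. Within LGE SVZ cells the order was reversed, at 68.2% with and 81.9% without Six3. Sp9 was found in 64.2% of LGE cells with Six3 and 46.4% of those without, in 70.1% and 82.5% of MGE cells, and in 58.1% and 56.6% of CGE cells. The 2 shares were thus apart in LGE, the other way round in MGE and close together in CGE, a difference between eminences that was not tested. Across the libraries the log2 difference of Sp9 between cells with and without Six3 was 0.23 (edgeR adjusted p = 0.378). Of 12264 genes tested 2.89% were higher in cells with Six3 and 0.775% lower (3.66% in either direction). Cells with Six3 and Sp9 and without Ebf1 or Isl1 numbered 337 of 2079 in LGE (16.2%), 1.69 times the number expected from the separate shares. They numbered 226 of 2257 in CGE (10.0%), 1.04 times, and 127 of 2150 in MGE (5.91%), 0.820 times. Cells with neither Six3 nor Sp9 and with Ebf1 or Isl1 numbered 611 in LGE (29.4%), 2.16 times expectation. All 3 were found together in 82 LGE cells (3.94%), 0.584 times expectation.

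Most cells with a receptor UMI in LGE and CGE also had Six3. Adora2a was found in 34 of 653 LGE cells with Six3 (5.21%) and 7 of 1426 without (0.491%), and in CGE in 11 of 432 (2.55%) and 6 of 1825 (0.329%). In MGE it was found in 0 of 204 and 1 of 1946 cells. At full depth the level was 19.5 CPM with and 1.78 CPM without Six3 in LGE, 11.0-fold (6.40 to 20.2), and 10.6 and 0.953 CPM in CGE, 11.2-fold (5.71 to 23.9).

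Oprk1 was found in 22 of 653 LGE cells with Six3 (3.37%) and 1 of 1426 without (0.0701%), in 2 of 204 and 0 of 1946 MGE cells, and in 25 of 432 (5.79%) and 3 of 1825 (0.164%) CGE cells. At full depth all 73 Oprk1 UMIs of LGE lay in Six3 cells, at least 32.3-fold above the 3-count floor of the other cells. In CGE 92 UMIs lay in cells with Six3 and 6 in the others, and in MGE 5 and 1. No test is given for the receptors in this split, because Oprk1 passed the filter on low counts through the cells with Six3 alone and Adora2a did not pass it without LGE. Cells with Six3 were deeper, with medians of 6647 against 6324 UMIs in LGE, 7184 against 6218 in MGE and 7200 against 6586 in CGE, whose part was not tested beyond the thinned shares.

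Six3os1 moved with Six3. It was found in 36.3% of LGE cells with Six3 and 3.44% without, in 13.7% and 0.308% in MGE and in 37.0% and 1.32% in CGE, a log2 difference of 5.12 (SE 0.251, edgeR adjusted p = 5.74e-04). The overlap of the 2 genes in the GENCODE M21 positions limits this value. Ebf1 and Isl1 did not pass in the Six3 comparison, at -0.31 (edgeR adjusted p = 0.908) and 0.48 (edgeR adjusted p = 0.734), and both signs depended on the library: Ebf1 was at 0.90 without LGE, and Isl1 was at -0.13 without MGE and was called higher without LGE, at 1.36 (edgeR adjusted p = 5.92e-05). No gene of the indirect list (3 tested), the direct list (6 tested) or the shared striatal list (10 tested) passed. Among genes at 50 CPM or more, those highest in Six3 cells were Six3os1, the corepressor Tle4 (1.83) and cell division genes such as Hmmr (1.81), Aurkb (1.75) and Top2a (1.75), and those lowest were interneuron genes such as Nxph1 (-2.64), Npy (-2.22) and Erbb4 (-2.18). Radial glia markers summed to 1241 CPM with and 714 CPM without Six3 in LGE, and their part was not tested.

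Split by Sp9, Adora2a was higher in cells with Sp9, by 2.30 on the log2 scale (SE 0.393, edgeR adjusted p = 0.0161), with 2 sums of each group reaching the filter, but not without LGE (edgeR adjusted p = 0.203) or with DESeq2 (adjusted p = 0.0926). Oprk1 at 1.78 (edgeR adjusted p = 0.199) and Six3 at -0.19 (edgeR adjusted p = 0.862) did not pass. Ebf1 was lower, at -5.37 (SE 0.513, edgeR adjusted p = 0.00369), and Isl1 was at -3.79 (SE 0.318, edgeR adjusted p = 0.00268), both in 3 of 3 libraries. Of 12336 genes tested, 7.95% were higher and 8.35% lower in Sp9 cells (16.3% in either direction), so calls were common here. Of the direct list 4 of 6 genes tested were lower, and of the glutamatergic markers 4 of 4. Among genes at 50 CPM or more, those highest in Sp9 cells included Ccnd2 (2.85) and cell division genes such as Top2a (2.59) and Aurkb (2.36). Those lowest included, beside Ebf1 and Isl1, Mgat4c (-4.48) and Sybu (-3.93). Ebf1 and Isl1 were also higher in MZ than in SVZ cells, at 5.81 and 2.44 (edgeR adjusted p = 2.41e-08 and 4.73e-04). The part of cell stage in the Sp9 split was not tested.

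The cells with a receptor were then described at full depth. In the 70 LGE and 34 CGE cells with Adora2a, Six3 stood at 1566 CPM against 373 CPM in the other LGE high-Dcx cells, and at 936 against 258 CPM in CGE. Ebf1 was at 72.0 against 572 CPM in LGE and 35.1 against 131 CPM in CGE. Penk, the enkephalin precursor, was at 42.8 against 1.67 CPM in LGE and 46.8 against 1.85 CPM in CGE, from 19 and 12 UMIs. By these levels Adora2a cells carried more Six3, more Penk and less Ebf1 in both libraries. The Penk values of both libraries and the CGE value for Ebf1 rest on few cells. In LGE 16 of the 19 Penk UMIs lay in 5 of the 57 cells with Adora2a and no Oprk1. The 12 Penk UMIs of CGE lay in 5 cells, and Ebf1 was found in 2 of the 34 CGE cells. Counted by cells, Adora2a was in 1.03% (0.125 to 3.67) of CGE cells with Ebf1 and 1.53% (1.05 to 2.15) without. That difference was within counting error. Foxp1, a striatal projection neuron factor, was 2.95-fold and 10.0-fold higher in LGE and CGE. None of the 89 Drd1 UMIs of LGE lay in these cells, a ratio whose interval reached 1.37, and Drd2 had 3 of its 6 LGE UMIs in these 70 cells.

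In the 29 LGE and 50 CGE cells with Oprk1, Six3 stood at 2881 against 379 CPM and at 2555 against 217 CPM. These cells stood above the rest, 7.61-fold (6.94 to 8.33) in LGE and 11.8-fold (10.9 to 12.7) in CGE. Ebf1 had 1 of its 8253 LGE UMIs and 0 of its 2058 CGE UMIs in them. Tac1 had 0 of 1493 and 0 of 259 UMIs, at least 6.14-fold and 1.96-fold lower than in the other cells by the 3-count floor. Foxp1, unlike in Adora2a cells, was at 0.984 and 0.772 times the level of other cells, with intervals that included 1 in both libraries. Glutamatergic markers had 0 UMIs in LGE Oprk1 cells and 3 in CGE, and the 6 microglial markers had 0 in both.

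**Figure D4:**
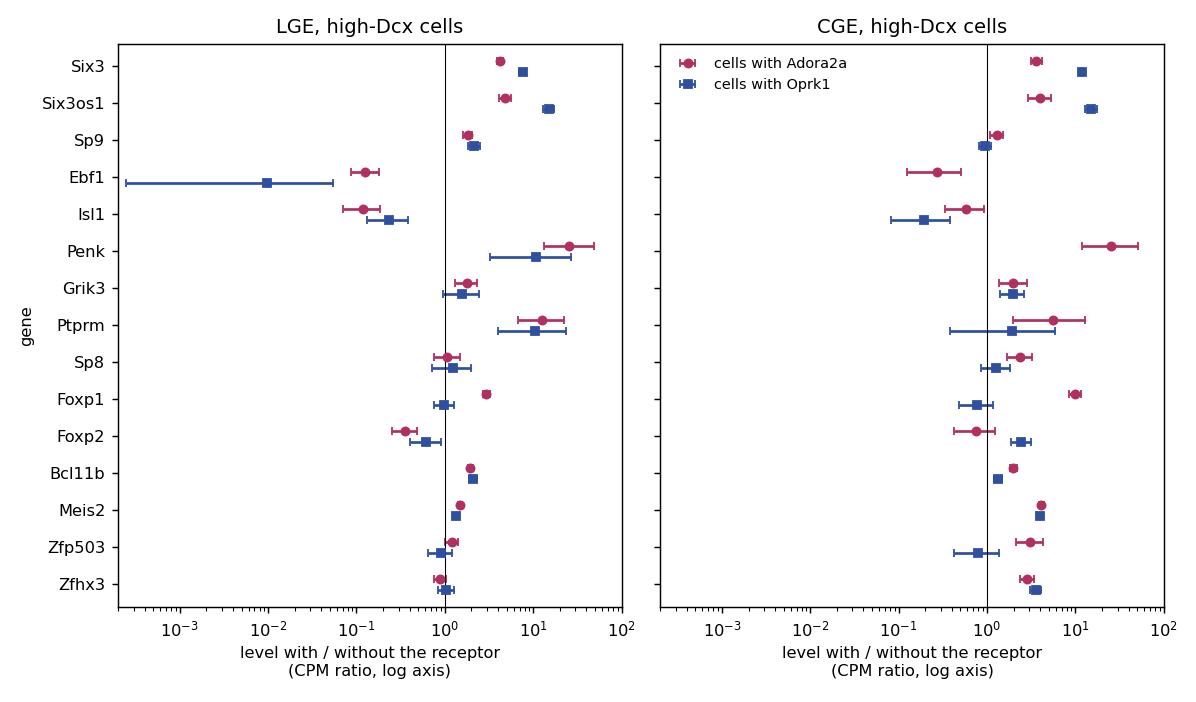
Ratio of the level (CPM, log axis) of each named gene in high-Dcx cells with Adora2a (circles) or with Oprk1 (squares) over the cells without that receptor, in LGE (left) and CGE (right), with exact counting intervals; ratios with 0 UMIs in a group (Ebf1 and Penk for Oprk1 in CGE) are left out. Six3 and Six3os1 lie above 1 and Ebf1 below 1 for both receptors, whereas Foxp1 lies above 1 for Adora2a cells only.

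Adora2a and Oprk1 overlapped in LGE and hardly in CGE. After thinning 8 LGE cells had both, 17.6 times the number expected from the separate shares, and 1 CGE cell had both (4.74 times, from 0.211 expected). At full depth 13 LGE cells had both, against 57 with Adora2a alone and 16 with Oprk1 alone, whereas CGE had 1, 33 and 49. Between cells with 1 receptor only, Six3 was lower in Adora2a cells, at 1213 against 2739 CPM in LGE (ratio 0.443, 0.379 to 0.519) and 867 against 2545 CPM in CGE (0.341, 0.292 to 0.396). Foxp1 was higher in Adora2a cells, at 1093 against 222 CPM in LGE and 718 against 60.6 CPM in CGE. Foxp2 was lower in them, at 89.3 against 212 CPM in LGE and 64.5 against 202 CPM in CGE. In CGE, Oprk1 cells had more of the CGE-lineage genes Nr2f2 (349 against 137 CPM) and Nr2f1 (1959 against 851 CPM) than Adora2a cells. The same held there for Prox1 (202 against 28.2 CPM) and Cxcl14 (66.4 against 24.2 CPM). Htr3a, also of that list, had 0 UMIs in Oprk1 and 2 in Adora2a cells. In LGE, Cxcl14 went the other way, at 21.2 against 109 CPM. These ratios rest on few cells of 1 library each, and the intervals do not cover the spread between cells.

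Likeness was taken as Pearson r of log2(CPM + 1) over 11 sums of VZ, SVZ and MZ cells, which share libraries, and is given as a description. The genes most like Six3 were Fign (0.954), Cxxc4 (0.947), Gm28438 (0.942), Meis1 (0.941) and Dtnbp1 (0.937). Those most like Sp9 were Dlx6os1 (0.987), RP23-145L9.6 (0.986), Trim8 (0.984), Fam222a (0.974) and Dlx5 (0.969). Among the 5 genes most like Adora2a were Tspan9 (0.853), Tmem189 (0.834), Cntn5 (0.827) and Scube1 (0.827), and among those most like Oprk1 were Rxrg (0.928), Myh7 (0.899), Cxcl14 (0.893) and Fbxw17 (0.892). Between the members, r was 0.770 for Six3 and Sp9 and 0.832 for Adora2a and Oprk1, but 0.195 for Six3 and Adora2a. Six3 and Isl1 had an r of 0.889 over these sums although in LGE Six3 was less frequent in cells with Ebf1 or Isl1.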

How the data were processed

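Droplet single-cell counts were used from 4 wild-type mouse libraries at embryonic day 12.5, 1 each from CTX, LGE, MGE and CGE. The authors deposited unnormalized UMI counts for each gene and barcode, made with Cell Ranger on mm10 (version 3.0.2 in the headers, 3.0.0 in the submitters' processing notes). The annotation release was not given in the sources used here. Positions came from GENCODE M21 on GRCm38 and promoters from RefSeq (GRCm38.p6); the promoter table had 2 of the 4 members. The members, gene lists and tests were chosen with earlier results of these data known.

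Filters required between 1500 and 4500 genes per barcode, a mitochondrial share below 5% and an Hbb share below 1%, and predicted doublets were removed at 0.8% per 1000 barcodes. High-Dcx and high-Nestin (VZ) cells had ln(1 + UMIs per 10000) above 1.5. Of high-Dcx cells, SVZ cells passed 0.5 for Ccnd2 and Mki67 and stayed under it for Rbfox3 and Mapt, and MZ cells stayed under it for Ccnd1, Ccnd2, Mki67, Hes5 and Nes. Cells passing both VZ and SVZ gates entered neither. Shares (Clopper-Pearson 95% intervals) were taken after thinning to 3000 UMIs. CPM came from summed raw counts with exact Poisson intervals. Limits at 0 used 3 counts.

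Cells with and without Ebf1 or Isl1, Six3 or Sp9 were summed within LGE, MGE and CGE and tested with edgeR 4.0.16 (quasi-likelihood, TMM, filterByExpr, library as block) in R 4.3.3, with Benjamini-Hochberg adjustment over all genes at 0.05. Cells are not replicates, and the 3 libraries were the units. VZ, SVZ and MZ sums were fitted likewise. The fits were tested on simulated data. Alternatives were DESeq2 1.42.0, other size factors, filters, gates and depths, no block, and each library left out.

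Named genes were the members, Ebf1 and Isl1, up to 6 genes per list in list order, the genes of largest change with the same sign in 3 libraries at 50 CPM or more, and the genes most like a member at 20 CPM or more. Gpr52 was the 1 of 106 listed genes that matched no feature. Six2, Six6, Rxrg, Ppp1r1b and Foxp2 ratios were chosen after their values were seen. Ratios between cells with 1 receptor only were added after seeing the data. A listed gene is not reported here.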

Additional observations from a re-analysis of the deposited data

Results flagged for a closer look

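Effects in opposite directions in the 3 eminences drew attention for 5 relations, and the difference between libraries was not tested in any of them. Six3 in high-Dcx cells with over without Ebf1 or Isl1 was 0.511 (0.484 to 0.540) for LGE, 7.78 (6.86 to 8.82) in MGE and 1.49 (1.39 to 1.60) in CGE. Seen from the other side, Ebf1 in cells with over without Six3 was 0.126, 3.01 and 1.21 in the same order, and Isl1 was 0.407, 3.42 and 2.05. Six3 in cells with over without Sp9 was 2.43 in LGE, 0.229 in MGE and 0.966 in CGE. Oprk1 with over without Ebf1 or Isl1 was 0.152 in LGE, 9.93 in MGE and 0.0480 in CGE, where the MGE ratio rests on 3 UMIs in each group (1.33 to 74.1).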

How the results depend on the processing

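Of 458 alternative values, 349 kept their direction and side of the threshold, 40 moved, 32 fell below the threshold, 20 rose past it and 17 changed direction. The cause was not tested. The Ebf1 or Isl1 comparison called 306 genes, and 522 with DESeq2, 1405 with no filter, 12 with no library block, 584 after thinning, 822 with 2 UMIs calling a cell and 135 (without LGE) to 801 (without CGE) with a library left out. The Six3 comparison called 449, and 1118 with no filter, 99 after thinning, 676 with no upper gene limit, 158 in MZ cells, 191 with 2 UMIs calling a cell and 148 (without MGE) to 861 (without LGE). With no library block edgeR called 0 and had 500 genes at an unadjusted p under 0.05, while DESeq2 with the block called 453. The Sp9 comparison called 2011, and 3 with no block, 1118 after thinning, 836 with the Dcx limit at 2.0, 120 in MZ cells and 354 (without LGE) to 1577. SVZ minus VZ called 4224, and 2473 after thinning and 2581 (without LGE) to 3201. MZ minus SVZ called 5346, and 3459 after thinning and 3619 to 4572.

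The LGE ratio of Six3 shares with over without Ebf1 or Isl1 was 0.511, and 0.630 at own depth, 0.392 in MZ cells, 0.321 with 2 UMIs calling a cell and 1.20 in SVZ cells, a gate added after seeing the data. In SVZ cells the Sp9 ratio for Ebf1 or Isl1 also turned, to 1.08 in MGE and 1.06 in CGE, as did the LGE ratios by Six3 of Sp9 (0.833) and Oprk1 (0). That Oprk1 value rests on a single cell and shows no reversal, with Oprk1 in 0 of 192 cells with Six3 and 1 of 193 without. For Ebf1 or Isl1 the Sp9 ratio in LGE SVZ cells was 0.837, against 0.243 in all LGE high-Dcx cells. Signs turned for Six3 in the Ebf1 or Isl1 comparison without MGE (-0.21, against 1.71 without LGE), for Ebf1 by Six3 without LGE (0.90, against -1.35 without MGE) and in MZ cells (0.15), for Isl1 by Six3 with no block (-0.22) and without MGE (-0.13, against 1.36 without LGE), and for Six3 by Sp9 with no block (0.26), without MGE (0.64, against -1.02 without LGE) and in MZ cells (0.67). They also turned for Six3 in SVZ minus VZ without LGE (-0.26, against 1.20 without MGE) and in MZ minus SVZ without CGE (-0.23, against 0.65 without LGE), and for Sp9 in LGE over CGE at a Dcx limit of 1.0 (0.997) and in MZ cells (0.964). Without the block no call on Adora2a, Ebf1 or Isl1 in these comparisons passed, nor those on Sp9 except in SVZ minus VZ (edgeR adjusted p = 0.217 for Sp9 by Ebf1 or Isl1, 0.118 for MZ minus SVZ). The block is the library. It pairs the sums of cells taken from the same library. Regions could not be paired with each other, because each has 1 library and its number pairs nothing.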

Other observations

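These values were chosen after they were seen. Ppp1r1b, which encodes DARPP-32, the phosphoprotein of mature striatal projection neurons, had 31 of its 39 LGE UMIs and 6 of its 13 CGE UMIs in cells with Adora2a, while CTX, where Adora2a had 3 UMIs, held 110 Ppp1r1b UMIs. Rxrg, a retinoid receptor of the striatum, had 23 of 236 LGE UMIs and 28 of 112 CGE UMIs in Adora2a cells, and 0 in Oprk1 cells of either library, with intervals of the ratio that reached 1.28 and 1.47. Six2, a homeodomain relative of Six3, had 35 of its 36 LGE UMIs in cells with Six3.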
